A study of Mus musculus with 8 samples.

Results

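The 10 genes described here encode transporters, receptors, plasma proteins and a secretory pathway protein that handle cholesterol and lipoproteins. They are Abca1, Abcg1, Abcg5, Abcg8, Scarb1, Lrp1, Vldlr, Lcat, Pltp and Tm6sf2. Most serve high-density lipoprotein (HDL) or sterol secretion into bile, while Lrp1, Vldlr and Tm6sf2 are described below for their part in other lipoproteins. The list was given by name and not by expression, and all 10 were found by Ensembl identifier among the 25690 genes of the table. Bulk liver RNA was sequenced from wildtype mice (4 libraries, numbered 1, 3, 10 and 12) and from mice with a hepatic FOXO1 knockout (4 libraries, numbered 3, 9, 10 and 11). The sources used here do not give the way the knockout was made, the strain, the age, the sex or the feeding state. They also do not say that each library is a different mouse, and p-values therefore measure only the spread among libraries, which may be technical.

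Cholesterol leaves cells through ABC transporters, is esterified and carried in HDL particles, returns to the liver through surface receptors, and is removed into bile. The liver both starts this cycle, by making HDL, and ends it. FoxO1, the product of Foxo1, is a transcription factor of the forkhead family, held in the cytoplasm when insulin signals.

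Values are FPKM, read fragments scaled to transcript length and to sequencing depth, so levels of different genes can be compared with each other. Changes are differences of log2(FPKM + 1), knockout minus wildtype, a scale that understates changes of low genes. A gene passed the test when its limma p, adjusted by the Benjamini-Hochberg method over the 10250 genes whose mean over the 8 libraries reached 1 FPKM, was under 0.05. Depth was estimated at about 26900000 to 35100000 fragments per library. Foxo1 was at 3.01 to 3.81 FPKM in the wildtype libraries and at 0.212 to 0.375 in the knockout libraries (limma adjusted p = 3.62e-05). Knockouts 3 and 11 stood apart from the other libraries by their acute phase transcripts: 12 such genes summed to 97970 and 96728 FPKM there, to 11964 and 12503 in knockouts 9 and 10, and to between 9518 and 10516 in wildtype. In bulk RNA, fewer cells of a type and less RNA per cell cannot be told apart.

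Of the 10 genes, 8 had a mean of at least 1 FPKM and were tested. Lrp1 rose and 0 fell, while 14.4% of all tested genes passed in either direction and 2.70% passed as higher. The count of 1 is therefore close to what the whole table gives. The median log2 change of the 8 was 0.18, beside -0.08 over all tested genes. Of the 8 genes 6 lay above 0, as did 3868 of all 10250 tested genes. Whether the 8 differ from all tested genes in this was not tested. The other 7 tested genes did not pass. Vldlr and Abcg1 had means of 0.633 and 0.60 FPKM and were examined without the filter. Vldlr was lower in every knockout library than in any wildtype library, and whether it passed depended on which low genes were tested with it.

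**Figure D1:**
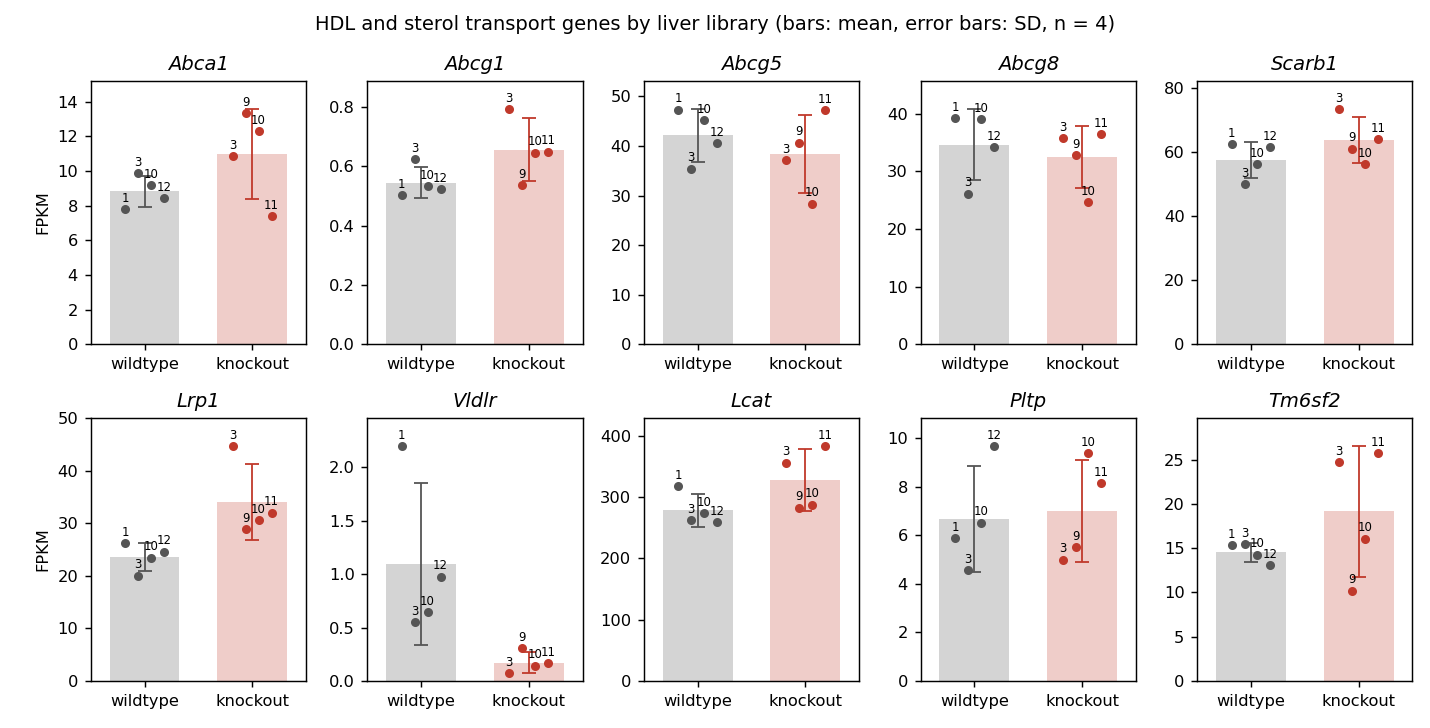
FPKM of each of the 10 genes in the 4 wildtype (grey) and 4 knockout (red) libraries. Points are libraries with their numbers, bars are means and error bars are SD, and each panel has its own linear axis from 0. The groups are apart for Lrp1 and Vldlr and overlap for the other 8 genes.

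In wildtype liver the 10 mean levels spanned a 510.5-fold range. Lcat was highest at 278 ± 27.1 FPKM (SD, n = 4), above 96.4% of the tested genes. It was followed by Scarb1 (57.4 ± 5.67), Abcg5 (42.1 ± 5.28), Abcg8 (34.6 ± 6.13) and Lrp1 (23.5 ± 2.59). Tm6sf2 (14.5 ± 1.11), Abca1 (8.83 ± 0.889) and Pltp (6.66 ± 2.17) came next. Vldlr (1.09 ± 0.760) and Abcg1 (0.545 ± 0.0538) were the lowest, and Vldlr was above 2.42% of the tested genes. Neighbours in this order whose wildtype libraries overlapped were Abcg5 with Abcg8, Abca1 with Pltp, and Vldlr with Abcg1. The order in the liver thus ran from a secreted HDL enzyme and the HDL receptor through the biliary sterol exporters to the VLDL receptor and a sterol exporter that is best known from macrophages.

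Abca1 encodes the transporter that loads cholesterol and phospholipid onto lipid-poor apolipoprotein A-I and so forms new HDL (ENSMUSG00000015243, chromosome 4, 53030787 to 53159895, mm10, minus strand). It was at 7.82, 9.87, 9.19 and 8.45 FPKM in wildtype 1, 3, 10 and 12. In knockouts 3, 9, 10 and 11 it was at 10.8, 13.3, 12.3 and 7.38 FPKM. Knockouts 3, 9 and 10 were above all 4 wildtype libraries, and knockout 11 was below them. With all libraries the log2 change was 0.26 (95% confidence interval -0.11 to 0.62, limma adjusted p = 0.323). Without knockout 11 it was 0.42 and passed (limma adjusted p = 0.0445, where 2.42% of genes passed as higher). Without knockouts 3 and 11 it was 0.49 and passed (limma adjusted p = 0.0437, where 1.94% did). Both fits leave out the knockout library that was below wildtype, so these passes give no separate support. Without knockout 9, the highest library, the log2 change was 0.16 (limma adjusted p = 0.510).

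Abcg1 encodes a half-transporter that exports sterols to mature HDL (ENSMUSG00000024030, chromosome 17, 31057675 to 31117988, mm10, plus strand). It was at 0.502, 0.623, 0.532 and 0.523 FPKM in wildtype 1, 3, 10 and 12 and at 0.792, 0.536, 0.646 and 0.649 FPKM in knockouts 3, 9, 10 and 11. Knockouts 3, 10 and 11 were above the wildtype range, and knockout 9 was within it. These values stand for an estimated 88 to 153 fragments per library, from the longest annotated transcript. Fitted without the filter, the log2 change was 0.10 (95% confidence interval -0.03 to 0.23, limma adjusted p = 0.380), and without knockout 3 it was 0.06.

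Abcg5 and Abcg8 encode both parts of the transporter that secretes cholesterol and plant sterols into bile (ENSMUSG00000040505, chromosome 17, 84658234 to 84683011, minus strand, and ENSMUSG00000024254, chromosome 17, 84676302 to 84700333, plus strand, both mm10). The genes lie head to head, and their RefSeq starts are 110 bases apart. The stretch between the starts is shown because both genes share it as upstream sequence. It is GRCm38.p6 sequence from RefSeq, chr17:84683012-84683120, read on the plus strand, in the direction of Abcg8. Capitals mark the motifs AAACA, the core of FoxO binding sites, and GATAA, the core of GATA factor sites, on either strand.
Abcg5-Abcg8: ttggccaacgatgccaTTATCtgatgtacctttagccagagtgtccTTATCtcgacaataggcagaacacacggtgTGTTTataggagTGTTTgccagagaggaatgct

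Each motif occurs 2 times between the starts. In windows from 250 bases before to 50 after a start, AAACA is found in 50.5% and GATAA in 25.4% of 32851 RefSeq promoters, so neither is rare. The longer FoxO site GTAAACA, held by 3.65% of promoters, was found in none of the 9 windows of the 7 genes that had one (Abca1, Abcg5, Abcg8, Lcat, Lrp1, Pltp and Vldlr). The sterol regulatory element TCACNCCAC (1.24% of promoters) and a direct repeat of AGGTCA spaced by 4 bases, the form bound by liver X receptors (0.0152%), were not found in these windows either. All motifs were searched on both strands. A match, or its absence from these letters, describes the window only.

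Abcg5 was at 47.3, 35.4, 45.2 and 40.6 FPKM in wildtype 1, 3, 10 and 12 and at 37.2, 40.7, 28.4 and 47.2 in knockouts 3, 9, 10 and 11. Abcg8 was at 39.2, 26.1, 39.0 and 34.1 in the same wildtype libraries and at 35.7, 32.7, 24.7 and 36.4 in the same knockout libraries. For both genes knockout 10 was the lowest of the 8 libraries, wildtype 3 was the lowest of the wildtype group, and the groups overlapped. The log2 change was -0.15 for Abcg5 (95% confidence interval -0.50 to 0.20, limma adjusted p = 0.578) and -0.09 for Abcg8 (-0.45 to 0.27, limma adjusted p = 0.747). These signs depend on the scaling. With quantile normalization the changes were 0.02 and 0.08, and with median-ratio scaling that of Abcg8 was 0.02. Leaving out single libraries, the Abcg5 change ran from -0.25 to -0.01, the latter without knockout 10.

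The ratio of Abcg5 to Abcg8 within a library is free of any single scaling factor per library, though not of quantile normalization or a length correction. In the deposited FPKM it was 1.21, 1.36, 1.16 and 1.19 in wildtype 1, 3, 10 and 12, and 1.04, 1.24, 1.15 and 1.30 in knockouts 3, 9, 10 and 11. The groups overlapped, and the mean log2 ratio was 0.29 in wildtype and 0.24 in knockout liver (2-sided exact permutation p = 0.514, with 0.0286 the smallest p that 70 assignments allow). The annotated genes overlap by their alternative starts, and without strand information reads in the overlap cannot be told apart.

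Scarb1 encodes scavenger receptor class B type I, the receptor through which hepatocytes take cholesteryl ester from HDL (ENSMUSG00000037936, chromosome 5, 125277087 to 125341094, mm10, minus strand). It was at 62.2, 49.9, 56.2 and 61.4 FPKM in wildtype 1, 3, 10 and 12 and at 73.2, 61.0, 56.2 and 64.0 FPKM in knockouts 3, 9, 10 and 11. The groups overlapped, with knockout 3 highest and wildtype 3 lowest. The log2 change was 0.14 (95% confidence interval -0.10 to 0.39, limma adjusted p = 0.423). It was 0.07 without knockout 3, 0.08 without wildtype 3, 0.03 without knockouts 3 and 11, 0.25 with median-ratio scaling and 0.31 with quantile normalization, and passed under none of the 21 alternatives. The scaffold gene Pdzk1, whose product holds this receptor at the hepatocyte surface, was at 22.9 ± 3.27 and 23.9 ± 1.94 FPKM (SD, n = 4) and likewise missed the threshold (limma adjusted p = 0.750).

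Lrp1, a very large endocytic receptor that clears chylomicron and VLDL remnants, was the one tested gene of the group that passed (ENSMUSG00000040249, chromosome 10, 127538161 to 127621148, mm10, minus strand). It was at 26.1, 20.0, 23.5 and 24.6 FPKM in wildtype 1, 3, 10 and 12. In knockouts 3, 9, 10 and 11 it was at 44.7, 28.9, 30.6 and 32.0 FPKM. All 4 knockout libraries were above all 4 wildtype libraries, which 4.83% of the tested genes shared in this direction. The means were 23.5 ± 2.59 and 34.04 ± 7.21 (SD, n = 4), a 1.45-fold higher level, and the log2 change was 0.50 (SE 0.14, 95% confidence interval 0.18 to 0.82, limma adjusted p = 0.0480). Knockout 3 was the highest, and without it the mean was 1.29-fold higher. The 2-sided exact permutation p for this gene alone was 0.0286, the smallest the design allows.

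The Lrp1 call lay close to the threshold. Besides the replicate block (0.74, limma adjusted p = 0.284), it held under 10 of 21 alternatives, with limma adjusted p from 0.0323 to 0.137 and changes between 0.33 and 0.64. Leaving out any 1 of the wildtype libraries ended it (limma adjusted p from 0.0778 for wildtype 1 to 0.114 for wildtype 3), as did leaving out knockout 3 (0.36, 0.0769), knockout 10 (0.0567) or knockout 11 (0.0758), or knockouts 3 and 11 together (0.33, limma adjusted p = 0.137). It was also lost with no filter (0.0922), with a mean of at least 0.5 FPKM (0.0515) and with the trend of values along transcript length removed (0.47, 0.103). The longest Lrp1 transcript, 14888 bases, is longer than that of 99.6% of tested genes. Among the 1015 longest tested genes the median log2 change was 0.01, and 3.05% were higher.

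**Figure D2:**
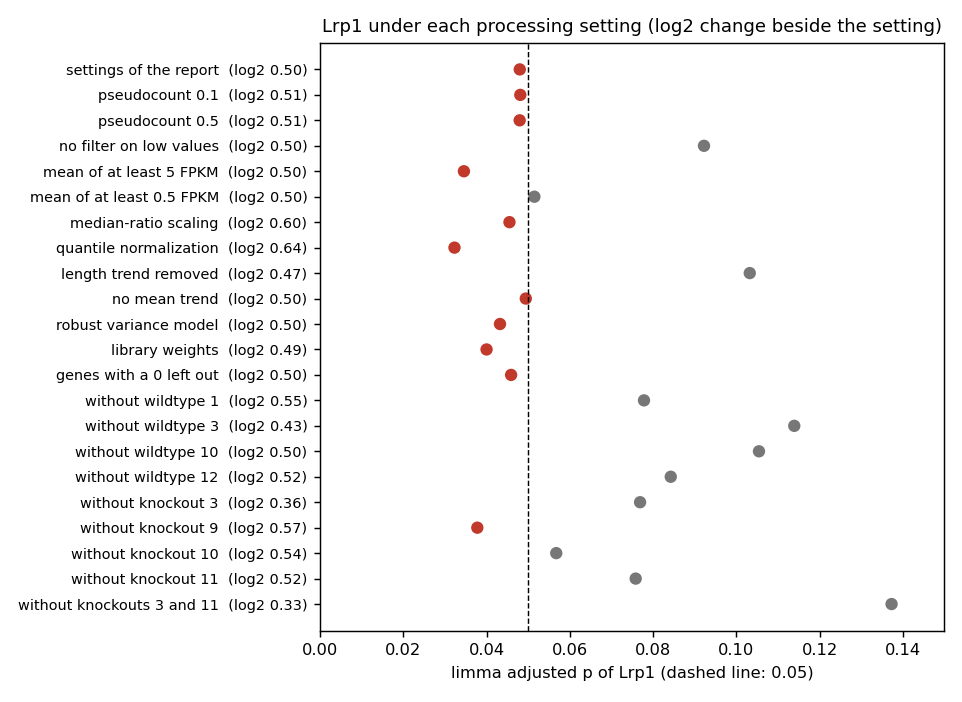
Adjusted p of Lrp1 (horizontal axis, limma) under the settings of the report and 21 alternatives other than the replicate block, with the log2 change beside each name; red points are under 0.05. The change is above 0 throughout, between 0.33 and 0.64, while the adjusted p lies on both sides of 0.05, from 0.0323 to 0.137.

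Lrp1 is also made by macrophages and stellate cells. Of 11 tested Kupffer cell and macrophage markers limma called 0 in either direction, with 0 at an unadjusted p under 0.05, and the 12 markers of that list summed to 112 to 148 FPKM in wildtype and 103 to 153 in knockout libraries. Over all 10250 tested genes 14.4% passed and 3126 had an unadjusted limma p under 0.05. Of 6 tested stellate cell and fibroblast markers limma called 0, with 2 at an unadjusted p under 0.05. The 10 markers of that list summed to 82.7 to 103 FPKM in wildtype and 43.6 to 103 in knockout libraries, and the lowest sums were those of knockouts 3 (43.6) and 11 (56.4). The defining macrophage markers Clec4f and Vsig4 were above 0 in every library. Of the 8 hepatocyte markers limma called 1 higher (Hnf4a) and 0 lower, with 3 at an unadjusted p under 0.05, where 2.70% of all tested genes passed as higher. These 8 were above 0 in every library except Alb, which is listed at 0 in knockout 10. Their sum was 21337 FPKM in that library and 44741 to 51005 in wildtype libraries, and the reason for the 0 was not tested. An antisense gene, Gm16217, overlaps Lrp1, and its reads cannot be told apart without strand information. The part of cell composition in the Lrp1 result was not tested. The upstream sequence of Lrp1 is shown because it belongs to the gene that passed: the 250 bases before its RefSeq start, GRCm38.p6, chr10:127621149-127621398, read on the minus strand, with none of the 5 motifs in it and therefore no capitals.
Lrp1: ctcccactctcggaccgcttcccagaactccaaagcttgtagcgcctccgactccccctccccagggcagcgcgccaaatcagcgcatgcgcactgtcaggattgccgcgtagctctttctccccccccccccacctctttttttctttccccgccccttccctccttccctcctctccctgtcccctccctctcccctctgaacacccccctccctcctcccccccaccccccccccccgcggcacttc

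Vldlr encodes the VLDL receptor, a lipoprotein receptor that is abundant in muscle, heart and fat and low in healthy liver (ENSMUSG00000024924, chromosome 19, 27216484 to 27254231, mm10, plus strand). It was at 2.201, 0.553, 0.645 and 0.977 FPKM in wildtype 1, 3, 10 and 12. In knockouts 3, 9, 10 and 11 it was at 0.0714, 0.306, 0.143 and 0.163 FPKM. All 4 knockout libraries were below all 4 wildtype libraries, which 10% of the 19052 genes with a mean above 0 shared in this direction, and wildtype 1 was the highest. The means were 1.09 ± 0.760 and 0.171 ± 0.0985 (SD, n = 4), 6.39-fold lower in the knockout, or 4.23-fold lower without wildtype 1. The values stand for an estimated 118 to 529 fragments per wildtype library and 19 to 74 per knockout library.

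Vldlr was below the filter, and its call depended on the genes tested with it and on the pseudocount. With no filter the log2 change was -0.78 (SE 0.22, 95% confidence interval -1.28 to -0.28, limma adjusted p = 0.0800), and 4.82% of genes passed as lower in that fit. With a mean of at least 0.5 FPKM, a limit chosen after its level was seen, it passed (limma adjusted p = 0.0371, where 9.94% passed as lower). It reached this limit only through wildtype, with means of 1.09 FPKM there and 0.171 in the knockout. That pass gives Vldlr no separate support, since the limit is tied to the difference. With a pseudocount of 0.1 FPKM and no filter the log2 change was -2.02 and it passed (limma adjusted p = 0.0305), while with 0.5 FPKM the change was -1.15 and it missed (limma adjusted p = 0.0558). It also passed when genes with a 0 in any library were left out (-0.78, limma adjusted p = 0.0459), which is another limit on low genes. The share of all genes passing as lower is not given for that fit or for the pseudocount of 0.1. Neither pass is therefore read as separate support. The 2-sided exact permutation p for this gene alone was 0.0286, again the smallest possible. With no filter it did not pass when any single library was left out (limma adjusted p from 0.0521 to 0.184), and the change then lay between -0.90 and -0.55.

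The VLDL receptor is also found on endothelial cells. Of 9 tested sinusoidal endothelial markers 3 fell (Stab1, Egfl7 and Fcgr2b) and 0 rose, where 11.7% of all tested genes fell. An unadjusted limma p under 0.05 was found for 6 of the 9, and for 3126 of all 10250 tested genes. The 10 markers summed to 81.2 to 103 FPKM in wildtype and 47.7 to 80.9 in knockout libraries. The median log2 deviation of these markers from wildtype was 0.03 in knockout 10, -0.46 in knockout 3, -0.62 in knockout 9 and -0.51 in knockout 11. The part of endothelial cells in the Vldlr result was not tested. The 250 bases before the first RefSeq start of Vldlr (GRCm38.p6, chr19:27216234-27216483, plus strand) are shown as the upstream sequence of the other gene whose groups were apart; none of the 5 motifs is in them.
Vldlr: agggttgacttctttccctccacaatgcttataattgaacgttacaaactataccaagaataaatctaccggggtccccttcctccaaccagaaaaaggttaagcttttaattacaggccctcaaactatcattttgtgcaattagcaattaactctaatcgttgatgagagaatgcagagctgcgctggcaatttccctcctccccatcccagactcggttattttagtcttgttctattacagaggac

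**Figure D3:**
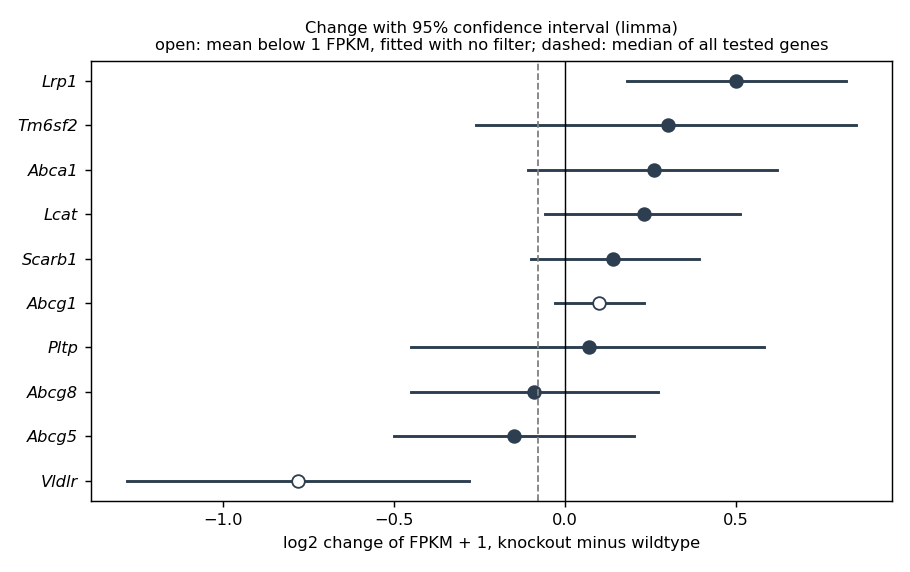
Log2 change of each of the 10 genes (points, knockout minus wildtype on the log2(FPKM + 1) scale) with its 95% confidence interval from limma; open points are the 2 genes below 1 FPKM, fitted without a filter, and the dashed line is the median of all tested genes, -0.08. The intervals of Lrp1 (0.18 to 0.82) and Vldlr (-1.28 to -0.28) do not include 0, and the other 8 do.

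Lcat encodes lecithin-cholesterol acyltransferase, the plasma enzyme that esterifies cholesterol on HDL (ENSMUSG00000035237, chromosome 8, 105939551 to 105943382, mm10, minus strand). It was at 318, 262, 274 and 259 FPKM in wildtype 1, 3, 10 and 12 and at 356, 282, 287 and 383 FPKM in knockouts 3, 9, 10 and 11. Knockouts 3 and 11 were above the wildtype range, and knockouts 9 and 10 were within it. The log2 change was 0.23 (95% confidence interval -0.06 to 0.51, limma adjusted p = 0.269), and it was 0.15 without knockout 11 and 0.04 without knockouts 3 and 11. With quantile normalization it was 0.47 and passed (limma adjusted p = 0.0385, where 4.59% of genes passed as higher). The antisense gene Gm16156 overlaps Lcat, with the same limit. The transcript is short, 1342 bases, and with the length trend removed the change was 0.43 (limma adjusted p = 0.0796).

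Pltp encodes the phospholipid transfer protein, which moves phospholipids between lipoproteins and remodels HDL (ENSMUSG00000017754, chromosome 2, 164839518 to 164857711, mm10, minus strand). It was at 5.89, 4.56, 6.51 and 9.67 FPKM in wildtype 1, 3, 10 and 12 and at 4.995, 5.50, 9.36 and 8.13 in knockouts 3, 9, 10 and 11. The groups overlapped almost wholly, with a coefficient of variation of 32.6% in wildtype and 29.9% in knockout libraries. The log2 change was 0.07 (95% confidence interval -0.45 to 0.58, limma adjusted p = 0.881). The gene overlaps Ctsa on the other strand, and reads of the overlap cannot be assigned without strand information.

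Tm6sf2 encodes a membrane protein of the secretory pathway that is needed to load VLDL with lipid (ENSMUSG00000036151, chromosome 8, 70072924 to 70080066, mm10, plus strand). It was at 15.3, 15.5, 14.3 and 13.1 FPKM in wildtype 1, 3, 10 and 12, with a coefficient of variation of 7.61%. In knockouts 3, 9, 10 and 11 it was at 24.7, 10.2, 16.1 and 25.7 FPKM, with a coefficient of variation of 38.5%. Knockouts 3, 10 and 11 were above the wildtype range and knockout 9 below it. The log2 change was 0.30 (95% confidence interval -0.26 to 0.85, limma adjusted p = 0.466), and it was 0.15 without knockout 3, 0.13 without knockout 11 and -0.16 without both. Without knockout 9 it was 0.55, with an adjusted p just above the threshold (limma adjusted p = 0.0501).

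Within the knockout group the genes did not vary alike. Relative to the wildtype mean, Tm6sf2 was on average 0.76 higher on the log2 scale in knockouts 3 and 11 and -0.16 in knockouts 9 and 10, and Lcat 0.41 and 0.04. Abca1 had the opposite order, 0.02 and 0.49, as its level in knockout 11 was the lowest of all. Lrp1 was above the wildtype mean in both pairs, 0.67 and 0.33, and Vldlr below it in both, at -0.84 and -0.71. The pairs differ in their acute phase transcripts, with Saa1 at 28413 (knockout 3), 33012 (knockout 11), 573 (knockout 9) and 266 FPKM (knockout 10). They also differ in the sum of a mixed list of 10 neutrophil and lymphocyte markers. It was 57.9 and 137 FPKM in knockouts 3 and 11, 3.99 and 7.73 in knockouts 9 and 10 and 2.39 to 5.84 in wildtype. Only 3 of these markers reached a mean of 1 FPKM, and limma called 0 of them. Ly6g, Mpo, Cd3e and Cd8a were at 0 in some libraries, so the sum does not show which cell type differs. The part of acute phase transcripts and of these markers in the differences between the pairs was not tested, since the pairs were formed after the libraries were seen. Of the 10 genes 7 had a larger coefficient of variation among knockout than among wildtype libraries, as did 69.4% of all tested genes.

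**Figure D4:**
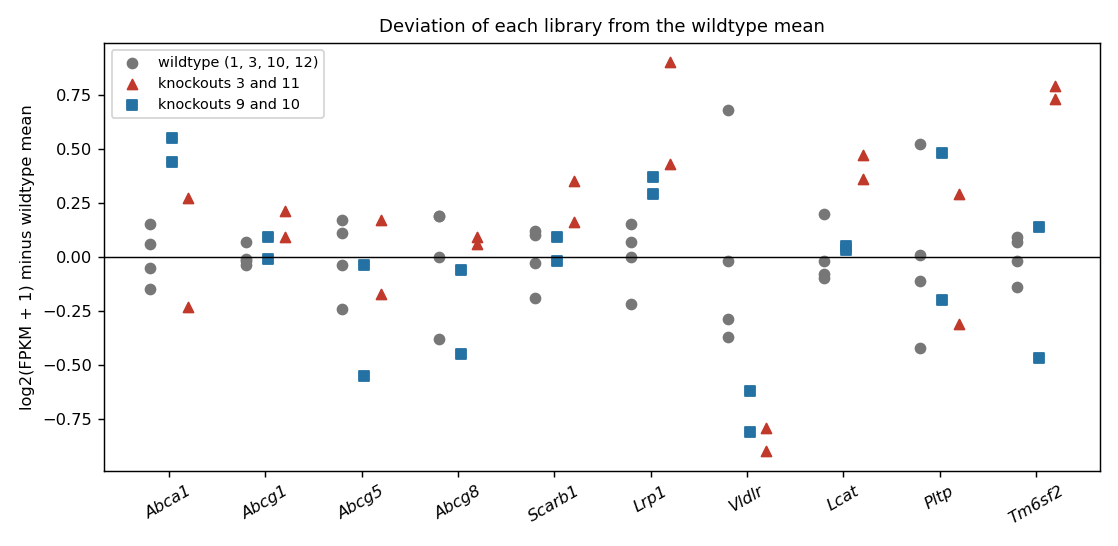
Deviation of each library from the wildtype mean of the gene, on the log2(FPKM + 1) scale, for the 10 genes; grey circles are wildtype libraries, red triangles knockouts 3 and 11, and blue squares knockouts 9 and 10. Tm6sf2 and Lcat are highest in knockouts 3 and 11, Abca1 is highest in knockouts 9 and 10, and all 4 knockout libraries are high for Lrp1 and low for Vldlr.

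Partner genes were taken from lists of the pathway. Among the other lipoprotein receptor family genes and their endocytic partners 3 of 12 tested rose and 0 fell, where 2.70% of all tested genes passed as higher and 11.7% as lower. Lrp5, a Wnt co-receptor of the same family, was at 4.15, 4.09, 3.48 and 4.11 FPKM in wildtype 1, 3, 10 and 12 and at 7.16, 7.33, 6.97 and 8.30 in knockouts 3, 9, 10 and 11. The groups were apart, as for 4.83% of all tested genes in this direction. The log2 change of Lrp5 was 0.77 (SE 0.09, limma adjusted p = 0.00305). It passed under all 21 alternatives other than the replicate block, with limma adjusted p up to 0.0170. Lrp10, another member of the family, went from 6.51 ± 0.173 to 8.99 ± 0.510 FPKM (SD, n = 4) and also passed under all 21 (log2 change 0.41, limma adjusted p = 0.0106 with all libraries). Lsr, the lipolysis-stimulated lipoprotein receptor, went from 52.0 ± 6.04 to 84.9 ± 22.6 FPKM (0.67, limma adjusted p = 0.0363), and did not pass without knockouts 3 and 11 (0.37, 0.129), with no filter (0.0807), with median-ratio scaling (0.0504), or when wildtype 1, 10 or 12 was left out (0.0871 to 0.101), or knockout 3 (0.0705) or 11 (0.0810).

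Of 13 tested genes of HDL proteins and lipases 4 fell and 1 rose, where 11.7% of all tested genes fell and 2.70% rose, and the median log2 change was -0.09. The gene that rose was Clu, for apolipoprotein J (0.69, limma adjusted p = 0.0227), and the last of the genes that fell was Pon1, for the HDL enzyme paraoxonase (-0.52, limma adjusted p = 0.0408); both were named after their values were seen. Both calls were among the less stable: Clu did not pass with no filter, without any 1 of the wildtype libraries or without knockout 11. Pon1 did not pass under 12 of 21 alternatives, among them median-ratio scaling, quantile normalization, removal of the length trend (0.111) and leaving out knockouts 3 and 11 (0.124). Hepatic lipase, Lipc, which trims phospholipid and triglyceride from HDL, was at 117, 91.2, 111 and 116 FPKM in wildtype 1, 3, 10 and 12 and at 39.2, 65.95, 77.9 and 54.1 in knockouts 3, 9, 10 and 11. Its groups were apart, as for 10% of the 19052 genes with a mean above 0 in this direction. That set is wider than the tested genes. Lipc fell by 0.90 on the log2 scale (SE 0.19, limma adjusted p = 0.0156). This call was lost only without wildtype 1 (0.0518) among 21 alternatives other than the block. The HDL apolipoprotein genes Apoa2 and Apoc1 went from 28196 ± 3233 to 13329 ± 3977 and from 19152 ± 2706 to 10219.5 ± 2206 FPKM (SD, n = 4), with log2 changes of -1.12 (limma adjusted p = 0.0112) and -0.92 (0.0124). With no filter neither passed (0.0777 and 0.0822), and with the length trend removed Apoc1 did not (-0.53, 0.0733), while Apoa2 did (-0.73, 0.0456). Apoa1, the main HDL protein and the acceptor of Abca1, was at 9363 ± 1044 and 9183 ± 1486 FPKM (-0.04, 95% confidence interval -0.38 to 0.30, limma adjusted p = 0.901). Without the filter 1 of the list fell and 0 rose, where 4.82% of all genes fell. With the length trend removed 2 fell and 1 rose, where 5.84% of all genes fell.

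Liver X receptors switch on Abca1, Abcg1, Abcg5 and Abcg8 when oxysterols rise. Over all 10250 tested genes 14.4% passed and 3126 had an unadjusted limma p under 0.05. Of 10 tested genes of liver X receptors, their RXR partners and targets limma called 0, and the unadjusted p was under 0.05 for 1. With quantile normalization (470 of all tested genes higher), without knockout 10 (276) and without knockouts 3 and 11 (199), 1 was higher. Their median log2 change was -0.07. Nr1h3, which encodes the liver-rich LXR alpha, was at 38.6 ± 1.22 and 34.04 ± 2.56 FPKM (SD, n = 4), a log2 change of -0.18 (95% confidence interval -0.36 to 0.01, limma adjusted p = 0.177). Nr1h2, for LXR beta, was at 13.8 ± 1.17 and 12.3 ± 0.776 FPKM (limma adjusted p = 0.294). Of 6 tested genes of the other ABCA and ABCG families limma called 0, and the unadjusted p was under 0.05 for 2. Without knockout 10, 2 of them were higher. With a mean of at least 5 FPKM (228 of 6003 genes higher), with library weights (401 of 10250) or without wildtype 12 (193), 1 was higher.

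Of 21 tested genes of sterol handling inside the cell 2 fell and 0 rose. This share of 9.52% is close to the 11.7% of all tested genes that fell, and the median log2 change was -0.12. Median-ratio scaling and quantile normalization each gave 1 higher and 1 lower. Leaving out wildtype 1, wildtype 10, wildtype 12, or knockouts 3 and 11 together gave 0 in either direction in limma. Soat2, the hepatocyte enzyme that esterifies cholesterol for lipoproteins, went from 13.6 ± 1.64 to 9.63 ± 0.545 FPKM (-0.46, limma adjusted p = 0.0187), and was lost without wildtype 1, 10 or 12, each alone (up to 0.0631), or knockouts 3 and 11 together (0.0728). Osbpl1a, an oxysterol-binding protein relative, went from 57.5 ± 1.92 to 43.1 ± 6.52 FPKM (-0.42, limma adjusted p = 0.0394), a call lost under 10 of 21 alternatives. Of 11 tested genes of VLDL assembly and canalicular lipid export 2 fell and 0 rose, where 11.7% of all tested genes fell. This list also holds Pltp and Lcat, which are described above as genes of the group. Its balance depended on the scaling, with 1 higher and 2 lower under median-ratio scaling and 3 higher and 1 lower under quantile normalization. Lcat was among those 3. Abcb11, the bile salt export pump, was at 147 ± 33.5 and 62.4 ± 16.5 FPKM (-1.23, limma adjusted p = 0.00931). Sar1b, a GTPase of lipoprotein transport out of the endoplasmic reticulum, was at 185 ± 9.88 and 135 ± 6.58 FPKM (-0.45, limma adjusted p = 0.00985), and missed the threshold after removal of the length trend (-0.21, 0.0948) and with quantile normalization (0.117). Abcb11 and the pair Abcg5 and Abcg8 act at the same canalicular membrane, and of these 3 genes Abcb11 alone passed; whether their changes differ was not tested.

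**Figure D5:**
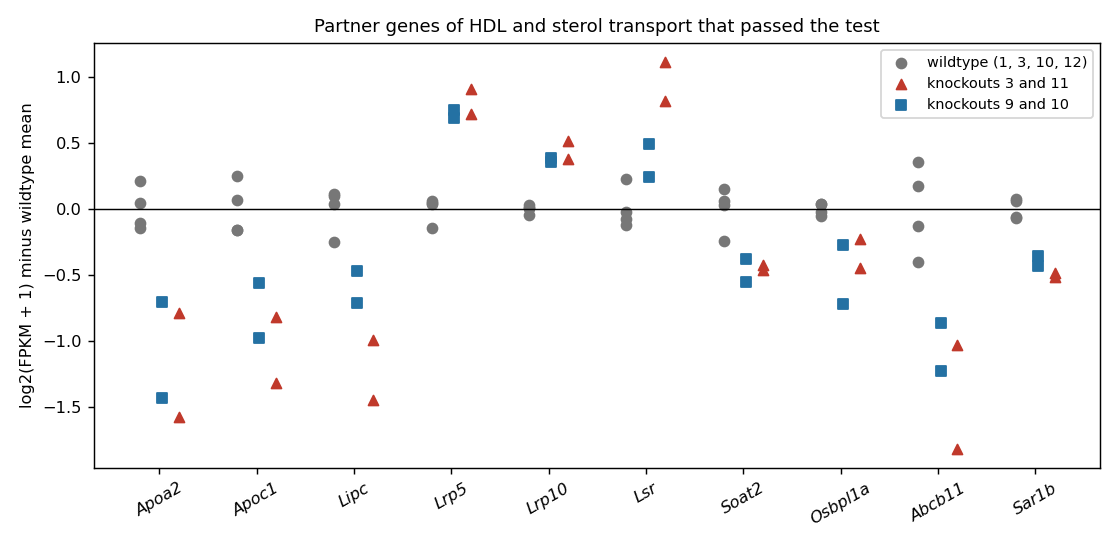
Deviation of each library from the wildtype mean, on the log2(FPKM + 1) scale, for the 10 partner genes named by rule; symbols are grey circles for wildtype, red triangles for knockouts 3 and 11 and blue squares for knockouts 9 and 10. For each of the 10 genes the knockout libraries lie on one side of all wildtype libraries, above for Lrp5, Lrp10 and Lsr and below for the other 7. The genes were picked because they passed the test, so this separation largely follows from the choice and gives no separate support.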

How the data were processed

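The authors deposited 1 table of FPKM per Ensembl gene for 8 liver libraries. The unit was read from the values, which are not whole, and from the submitters' processing notes, which name tools (TopHat2 2.1.0, HTSeq and Cufflinks 2.2.1, build mm10, with no role or order); the header gives library names only. The sources used here do not state the annotation, the read length or the use of strand, and counts were not used. Groups came from the titles. Names, positions and transcript lengths came from GENCODE M21 on the same build (24807 of 25690 genes named), promoter sequences from RefSeq (GRCm38.p6). Depth was estimated from the lowest FPKM of genes with 1 transcript over 1500 bases.

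log2(FPKM + 1) of genes reaching a mean of 1 FPKM was fitted with limma 3.58.1 (R 4.3.3), genotype as the single term, a mean trend in the variances, 2-sided tests and Benjamini-Hochberg adjustment at 0.05 over all tested genes. In data simulated for this comparison (10250 genes), 99% of genes changed by 2 and 85% of those changed by 1 on the log2 scale were recovered. Of the 194 calls in the simulated data 5.15% were false. Recovery was examined only for these sizes of change, both larger than that of Lrp1. The measured data gave 1472 calls, far more than the simulated data. The simulated share of false calls therefore does not carry over to the measured data, where it was not tested.

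Named were the 10 genes, Foxo1 and up to 3 passing genes with the smallest adjusted p per pathway list; Nr1h3, Nr1h2, Apoa1, Pdzk1, Clu, Pon1, Saa1 and the marker genes were added after their values were seen. Genes of most similar pattern were to be named for members that passed with a change of at least 0.5; Lrp1 was just below this limit before rounding, so none are. The genes, lists and alternatives were chosen with earlier results of these data known. Libraries 3 and 10 occur in both groups by number; same-numbered libraries did not deviate together (correlations of -0.008 and 0.022).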

Additional observations from a re-analysis of the deposited data

How the results depend on the processing

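Leaving out single libraries gave 0 to 1 of the 10 genes passing, and 701 to 1654 genes in all (102 to 360 higher, 599 to 1294 lower). Of the 10 genes 0 passed with no filter or with the length trend removed and 2 with quantile normalization. Over all genes, 485 were higher and 720 lower with median-ratio scaling, 470 and 652 with quantile normalization, and 492 and 599 with the length trend removed, in place of 277 and 1195, so that the share of higher genes among those passing went from 18.8% to 40.2%, 41.9% and 45.1%. The median change of all genes was then 0.01, -0.01 and 0.01 in place of -0.08. Without knockouts 3 and 11, 855 genes passed, 656 of them lower. With a replicate block on the numbers in the titles, which leaves only numbers 3 and 10 to inform the difference, 0 of the 10 genes and 2 genes in all passed, 1 in each direction; the log2 ratio of Abcg5 to Abcg8 differed by -0.20 within these numbers, in place of -0.06, and by -0.10 to 0.00 leaving out single libraries. Of genes that did not pass, signs changed for Abcg5 (0.02 with quantile normalization), Abcg8 (0.02 with median-ratio scaling, 0.08 with quantile normalization, 0.03 without knockout 10; -0.22 to 0.03 leaving out single libraries), Pltp (-0.07 to 0.24 leaving out single libraries: -0.07 without wildtype 3, -0.07 without knockout 10, -0.01 without knockout 11) and Tm6sf2 (-0.16 without knockouts 3 and 11). The causes were not tested. Of 264 recomputed counts of the partner lists 39 moved by over 1.5 times. For Vldlr and Abcg1 the length trend was not removed, since it was estimated on genes above 1 FPKM. Precision is limited by 4 libraries per group and, for Vldlr and Abcg1, by few fragments.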
